A study of Mus musculus with 2 samples.

Results

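Transcripts of 10 genes that are linked to lipid handling in macrophages (Trem2, Apoe, Gpnmb, Spp1, Fabp5, Lpl, Cd36, Lgals3, Abca1 and Ch25h) were followed in single cells of mouse CT26 colon tumors. The genes were chosen by symbol, and all 10 were found among the 33696 genes of the count tables. They were described in macrophage clusters, monocyte-like cells, an osteoclast-like cluster and tumor cells.

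Macrophages that clear dying cells take up their membrane lipids and must store or export the cholesterol. TREM2 is a surface receptor that binds lipids and lipoproteins and signals through the adaptor TYROBP. The other genes cover the following steps: CD36 and lipoprotein lipase bring fatty acids in, FABP5 carries them inside the cell, ABCA1 and apolipoprotein E carry cholesterol out, and CH25H hydroxylates cholesterol to an oxysterol. GPNMB, osteopontin (Spp1) and galectin-3 (Lgals3) are glycoprotein or lectin products that mark lipid-laden macrophages in many tissues, but they are also made by other cells, tumor cells among them.

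CT26 cells, a BALB/c colon carcinoma line, were grown under the skin of BALB/c mice aged 6 to 8 weeks. Mice were left untreated (UT) or received BUP-Gel, a hydrogel that releases the local anesthetic bupivacaine at the tumor (40 mg/kg of bupivacaine). Each group is 1 library pooled from 3 tumors, made from live cells sorted by CD45 and mixed in favor of CD45+ cells, so no test between the groups was possible and every difference below is between 2 libraries. There was no group with the gel alone, and the share of tumor cells was set by the mixing of the sorted fractions.

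The UT library held 83228442 UMIs (unique molecular identifiers, counted transcripts) and the BUP library 89918925. After the filter on cells, 7163 UT cells with a median of 8430 UMIs and 6776 BUP cells with a median of 10420 UMIs were kept. The libraries shared 68 cell barcodes, 1.00% of those kept. Levels are given as counts per 1000000 UMIs of a cell class (CPM) with exact Poisson 95% intervals, and ratios of BUP over UT on the log2 scale with exact 95% intervals in brackets. All of these intervals cover counting error only, not the differences between mice. A value was called higher or lower at 1.5-fold or more.

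Clustering was done without the 10 genes. The mature macrophage-like cluster, led by Gas6, C1qa and Ccl8, held 962 UT and 366 BUP cells, and its summed level of 9 macrophage markers was 15846 CPM in UT and 15244 CPM in BUP. A further cluster of 348 and 157 cells had the same markers with cell-cycle genes and is called cycling mature. A larger cluster of 1275 and 803 cells was led by Inhba and Cxcl3, with macrophage markers at 3464 and 3068 CPM, and another of 358 and 244 cells by interferon-response genes. The monocyte-like cluster held 240 and 109 cells. The osteoclast-like cluster held 84 and 63 cells, and its leading genes included markers of type 2 conventional dendritic cells (cDC2), Cd209a and Mgl2, beside Ctsk and Acp5. It was a mixed cluster, and the name fits the smaller part of its cells. Most of its cells did not have the osteoclast markers above the cDC2 markers, and in UT the summed cDC2 markers were the higher (values below). Tumor cells fell into an Ogn and Aspn cluster (512 and 1539 cells), a Krt20 and Nppb cluster (442 and 688 cells) and a cycling cluster (172 and 205 cells).

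Some clusters carried markers of other cells. In the interferon-led cluster the summed neutrophil markers were 8286 CPM in UT and 18304 CPM in BUP, and in the mature cluster 1163 and 2420 CPM. In the cycling mature cluster the summed T cell markers were 343 and 1072 CPM, and 21.6% of its cells were among the 6% with the highest doublet scores. Doublets were not removed, and the part of these markers in the results was not tested.

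All 10 genes are protein-coding and lie on 9 chromosomes of GRCm39. Trem2 (ENSMUSG00000023992) lies at chr17:48653429-48661175, plus strand. Gpnmb (ENSMUSG00000029816) spans chr6:49013426-49047863, plus strand. Abca1 (ENSMUSG00000015243) spans chr4:53030787-53159900, minus strand. Promoters from RefSeq (table build GRCm38.p6) were found for 8 of the 10 genes, and each of their 11 sequences matched GRCm39 exactly once. The 250 bases before the RefSeq start are given here for a gene highest in mature macrophages (Trem2), for the gene highest in Ogn and Aspn tumor cells (Gpnmb), and for the cholesterol exporter Abca1. They lie at chr17:48653179-48653428 (plus strand), chr6:49013202-49013451 (plus strand) and chr4:53159896-53160145 (minus strand), and capitals mark the letters CACGTG.

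Trem2: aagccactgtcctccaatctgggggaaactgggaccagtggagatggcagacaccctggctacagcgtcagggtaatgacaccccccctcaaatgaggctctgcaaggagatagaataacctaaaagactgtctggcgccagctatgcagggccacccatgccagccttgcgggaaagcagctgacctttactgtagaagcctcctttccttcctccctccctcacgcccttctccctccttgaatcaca

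Gpnmb: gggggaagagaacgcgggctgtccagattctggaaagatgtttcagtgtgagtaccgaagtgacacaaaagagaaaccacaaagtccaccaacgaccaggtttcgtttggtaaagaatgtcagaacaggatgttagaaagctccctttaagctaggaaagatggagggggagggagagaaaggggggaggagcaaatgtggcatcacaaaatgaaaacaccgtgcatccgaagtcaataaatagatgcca

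Abca1: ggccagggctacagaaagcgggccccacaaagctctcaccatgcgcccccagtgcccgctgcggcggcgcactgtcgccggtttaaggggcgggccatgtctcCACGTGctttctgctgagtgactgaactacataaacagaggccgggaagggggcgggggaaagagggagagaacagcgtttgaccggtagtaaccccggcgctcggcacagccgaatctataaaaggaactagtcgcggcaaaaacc

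CACGTG, an E-box of the kind bound by TFEB and MITF family factors that control lysosomal genes, was the motif found in 1 of the 11 member promoters, that of Abca1, where it begins 147 bases before the start. The same letters (they read alike on both strands) stood in 6.02% of 32851 RefSeq promoter windows of this length. AGGTCA followed by the same letters after 4 free bases (DR4, the spacing bound by LXR factors) or after 1 free base (DR1, the spacing bound by PPAR factors) was searched on both strands, and each was in 0 of the 11, against 0.0152% and 0.0335% of all windows. A match is a description of the letters and not a measured site.

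The 10 genes did not share a cell class. Over the 9 classes described here, the class with the highest level was the same in both libraries for 10 of 10 genes. It was the mature macrophage cluster for 5 genes (Trem2, Apoe, Cd36, Abca1 and Ch25h). For the other members it was the Inhba and Cxcl3 macrophages (Lgals3), the interferon-led macrophages (Fabp5), the osteoclast-like cluster (Lpl), the Ogn and Aspn tumor cells (Gpnmb) and the Krt20 and Nppb tumor cells (Spp1). By level among these 9 classes, Apoe, Cd36, Abca1 and Ch25h thus fit the label of lipid-handling Trem2-type macrophage genes. They were highest in the cluster where Trem2 itself was highest. Lgals3 and Fabp5 were highest in other macrophage clusters. Gpnmb was higher in Ogn and Aspn and in Krt20 and Nppb tumor cells, and Spp1 in each tumor cluster, than in any macrophage cluster.

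**Figure D1:**
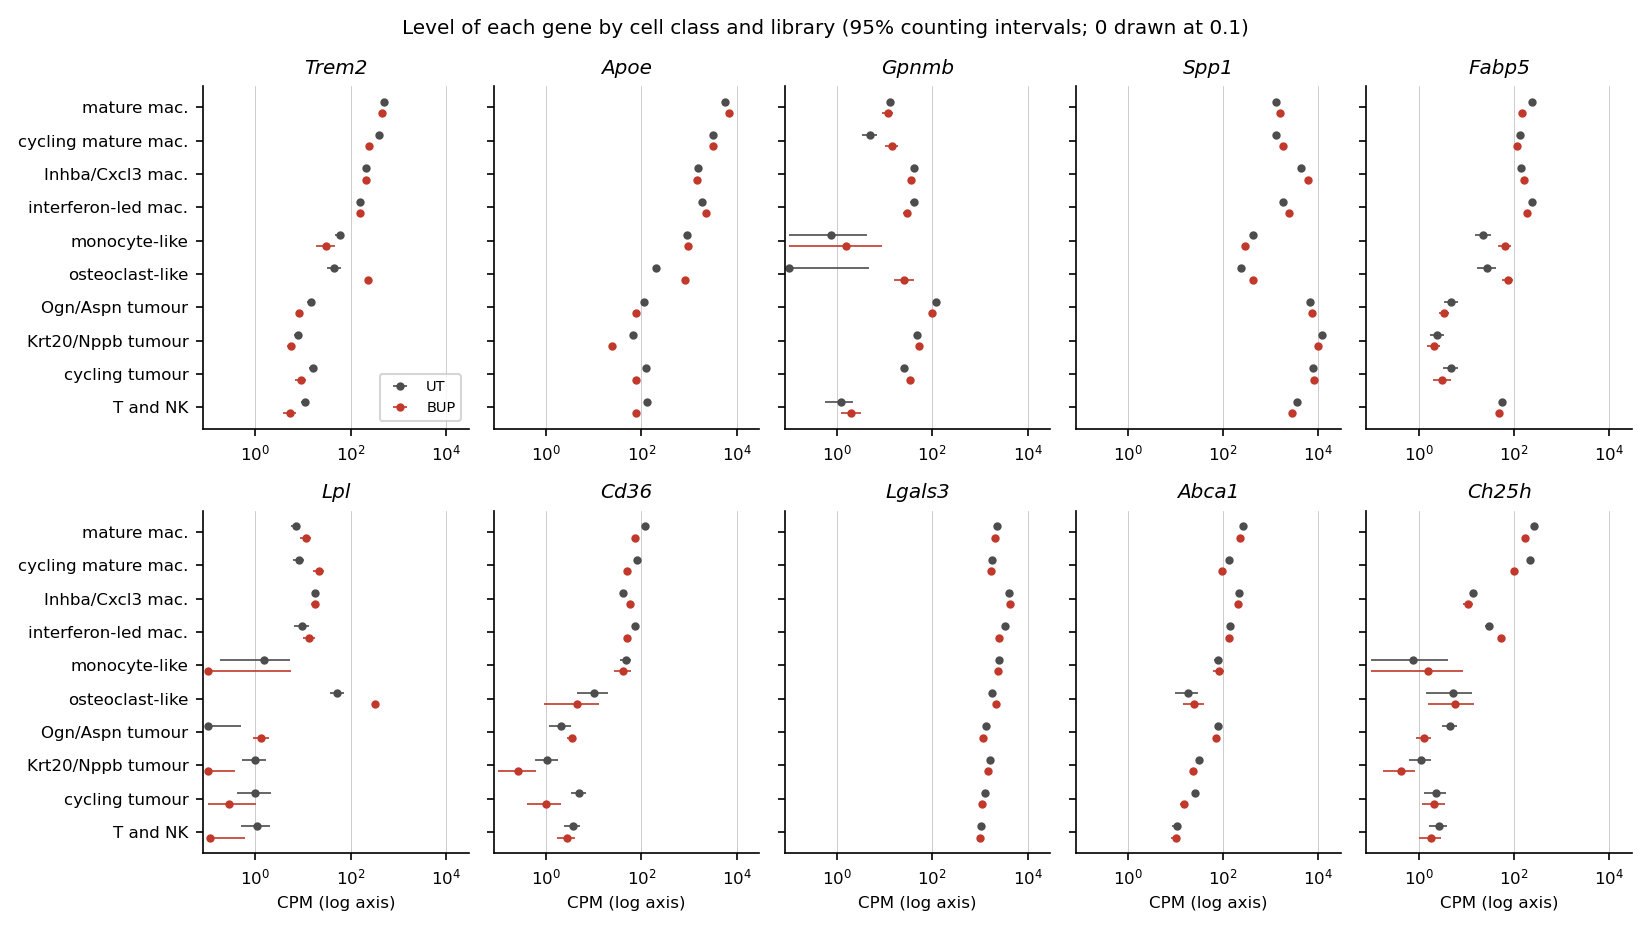
Level of each of the 10 genes (CPM, log axis) in the 9 classes of the UT and BUP libraries, with exact Poisson 95% intervals. Trem2, Apoe, Cd36, Abca1 and Ch25h are highest in mature macrophages, and Gpnmb and Spp1 in tumor cells.

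Trem2, the lipid receptor, reached 498 CPM in UT against 447 CPM in BUP mature macrophages. It followed in the cycling mature cluster (401 and 247 CPM), the Inhba and Cxcl3 macrophages (212 and 211 CPM) and the interferon-led macrophages (160 and 161 CPM). Monocyte-like cells had 59.0 and 31.0 CPM and the osteoclast-like cluster 45.0 and 233 CPM. The interval of each of these macrophage clusters stood apart from the others' within the UT library, so the order mature, cycling mature, Inhba and Cxcl3, interferon-led was outside counting error there. A Trem2 UMI was found in 93.1% of UT and 90.7% of BUP mature macrophages (median depths 12751 and 11078 UMIs). In T and NK cells, which should lack the gene, it was found in 4.84% and 2.84% (median depths 5820 and 6247 UMIs). With every cell thinned to 2000 UMIs the shares were 58.5% and 55.6% of mature macrophages against 2.20% and 1.40% of T and NK cells. The thinning left out 10 UT and 8 BUP mature macrophages, and 139 and 122 T and NK cells.

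Between the libraries, Trem2 differed by little in the mature cluster (log2 ratio -0.16 [-0.23, -0.09]), and the ratios in Inhba and Cxcl3 and in interferon-led macrophages were -0.01 and 0.01. It was lower in BUP in the cycling mature cluster (-0.70 [-0.81, -0.58]), where the summed macrophage markers also went from 13065 to 8881 CPM and the summed C1q genes from 9768 to 6639 CPM. Monocyte-like cells had the ratio -0.93 [-1.72, -0.21], which rests on few UMIs and turned to 0.29 when cells were thinned to equal depth. Tyrobp, the adaptor that TREM2 needs to signal, stood at 1915 and 2359 CPM in mature macrophages and stayed under 1.5-fold in every macrophage cluster.

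Apoe, which carries cholesterol and other lipids out of the cell in lipoprotein particles, reached 5633 CPM in UT against 6950 CPM in BUP mature macrophages (0.30). The cycling mature cluster had 3252 and 3183 CPM, the interferon-led cluster 1911 and 2283 CPM, the Inhba and Cxcl3 macrophages 1575 and 1477 CPM and monocyte-like cells 895 and 954 CPM. None of these clusters differed by 1.5-fold between the libraries. The level in mature over Inhba and Cxcl3 macrophages was a log2 ratio of 1.84 in UT and 2.23 in BUP.

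Abca1, the transporter that loads cholesterol onto apolipoproteins, was spread more evenly. Mature macrophages had 267 and 229 CPM and Inhba and Cxcl3 macrophages 211 and 207 CPM, and in BUP the intervals of these clusters overlapped. Interferon-led macrophages had 138 and 132 CPM, and monocyte-like cells 77.2 and 80.6 CPM. Its log2 ratios between the libraries were between -0.47 and 0.06 in the macrophage and monocyte clusters, so no cluster passed 1.5-fold.

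Ch25h, which makes 25-hydroxycholesterol, separated the macrophage clusters more sharply than the other cholesterol genes. It reached 267 CPM in UT against 170 CPM in BUP mature macrophages, against 13.8 and 10.9 CPM in Inhba and Cxcl3 macrophages, a log2 ratio of 4.27 and 3.97. The cycling mature cluster had 222 and 99.7 CPM and the interferon-led cluster 30.6 and 53.5 CPM. Between the libraries Ch25h was lower in BUP in the mature (-0.65 [-0.76, -0.54]) and cycling mature clusters (-1.15 [-1.33, -0.97]). It was higher in the interferon-led cluster (0.81 [0.45, 1.17]), where the summed C1q genes of mature macrophages rose from 1161 to 2062 CPM alongside it, and the ratio turned to -0.09 at a clustering resolution of 1.0. A Ch25h UMI was found in 52.8% of UT and 45.1% of BUP mature macrophages, and in 26.6% and 19.0% after thinning.

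Cd36, a scavenger receptor for oxidized lipoproteins and fatty acids, reached 119 CPM in UT against 73.1 CPM in BUP mature macrophages (-0.70 [-0.88, -0.53]) and at 80.2 and 50.3 CPM in the cycling mature cluster (-0.67). Both were past the fold, but the mature value fell under it in some of the alternatives given below. Interferon-led macrophages had 71.8 and 49.9 CPM (-0.52), while Inhba and Cxcl3 macrophages had 41.5 and 57.7 CPM (0.47), both under it. The mature over Inhba and Cxcl3 log2 ratio was therefore 1.52 in UT and 0.34 in BUP.

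Fabp5, a cytosolic fatty acid carrier, followed the same library difference in mature macrophages. It reached 234 CPM in UT against 150 CPM in BUP (-0.64 [-0.76, -0.52], past the fold in 6 of 11 alternatives), and at 236 and 190 CPM in interferon-led macrophages (-0.31). Inhba and Cxcl3 macrophages had 138 and 160 CPM (0.21). In monocyte-like cells it was higher in BUP (22.7 and 63.5 CPM, 1.48 [0.77, 2.21]), but 5 cells held 78.0% of the BUP UMIs, and T and NK cells had 57.4 and 49.0 CPM. The gene was thus near equal in mature and interferon-led macrophages of UT, where the intervals overlapped.

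Lpl, the enzyme that frees fatty acids from lipoprotein triglycerides, was low in most macrophages. Mature macrophages had 7.09 CPM in UT and 11.5 CPM in BUP (0.70 [0.19, 1.19]), and Inhba and Cxcl3 macrophages 17.7 and 17.5 CPM. The cycling mature cluster had 8.28 and 21.3 CPM (1.36 [0.82, 1.90]), with 89.2% of the BUP UMIs in 5 cells. In the osteoclast-like cluster the level was 52.7 and 330 CPM. Tumor cell clusters had at most 1.34 CPM.

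Spp1, which encodes the secreted matricellular protein osteopontin, reached 11691 CPM in UT against 9676 CPM in BUP Krt20 and Nppb tumor cells, at 6578 and 7247 CPM in Ogn and Aspn tumor cells and at 7720 and 8005 CPM in cycling tumor cells. Among macrophages it was highest in the Inhba and Cxcl3 cluster (4293 and 6084 CPM, 0.50), and lower in the interferon-led (1814 and 2452 CPM), cycling mature (1290 and 1844 CPM) and mature clusters (1258 and 1590 CPM). These ratios, from 0.34 to 0.51, all lay under 1.5-fold. Lymphocyte clusters differed widely, with 6183 and 6049 CPM in NK-like cells and 1925 and 1909 CPM in CD8 T-like cells. The T-like cluster led by Il17a and Foxp3 had 206 and 349 CPM, and the cycling T-like cluster is not reported here by itself. Monocyte-like cells had 416 and 290 CPM. The part of background RNA in the macrophage levels was not tested. Over the macrophage clusters summed, Spp1 went from 2247 to 3557 CPM (0.66), past the fold that none of the 4 clusters reached alone. The sum also holds the difference in makeup, with 962 mature and 1275 Inhba and Cxcl3 macrophages in UT against 366 and 803 in BUP. Ch25h, summed in the same way, had 157 and 74.4 CPM (-1.08). These were the 2 of 10 genes past the fold over all macrophages, against 4.83% of all genes higher and 4.53% lower (9.36% in all).

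Gpnmb, a membrane glycoprotein of lysosomes and melanosomes, was highest in Ogn and Aspn tumor cells but was not confined to tumor cells. In UT the Inhba and Cxcl3 and the interferon-led macrophages had more of it than cycling tumor cells. Ogn and Aspn tumor cells had 117 CPM in UT and 97.1 CPM in BUP, Krt20 and Nppb tumor cells 48.0 and 53.9 CPM and cycling tumor cells 25.9 and 34.9 CPM. In macrophages it had 42.2 and 35.1 CPM among Inhba and Cxcl3 cells, 41.5 and 29.3 CPM in the interferon-led cluster and only 13 and 11.7 CPM in the mature cluster. Mature macrophages, the class with the most Trem2, thus had less Gpnmb than Inhba and Cxcl3 macrophages (log2 ratio -1.70 and -1.58). A Gpnmb UMI was in 55.1% and 50.7% of Ogn and Aspn tumor cells and in 4.63% and 6.35% of Inhba and Cxcl3 macrophages, against 0.913% and 0.919% of T and NK cells. Thinned to equal depth, 21.3% and 16% of Ogn and Aspn tumor cells had one. In the cycling mature cluster the gene was called higher in BUP (4.94 and 14.1 CPM, 1.51), with 93.0% of the BUP UMIs in 5 cells.

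Lgals3, a lectin that binds damaged lysosomes and cell-surface glycans, was abundant in every class. It was highest in Inhba and Cxcl3 macrophages at 4147 and 4184 CPM, followed by interferon-led macrophages (3304 and 2564 CPM), monocyte-like cells (2513 and 2343 CPM) and mature macrophages (2289 and 2093 CPM). Tumor cell clusters had 1253 to 1613 CPM in UT and 1081 to 1449 CPM in BUP. T and NK cells had 1069 and 987 CPM. No class described here differed by 1.5-fold between the libraries, and the log2 ratios lay between -0.37 and 0.24.

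**Figure D2:**
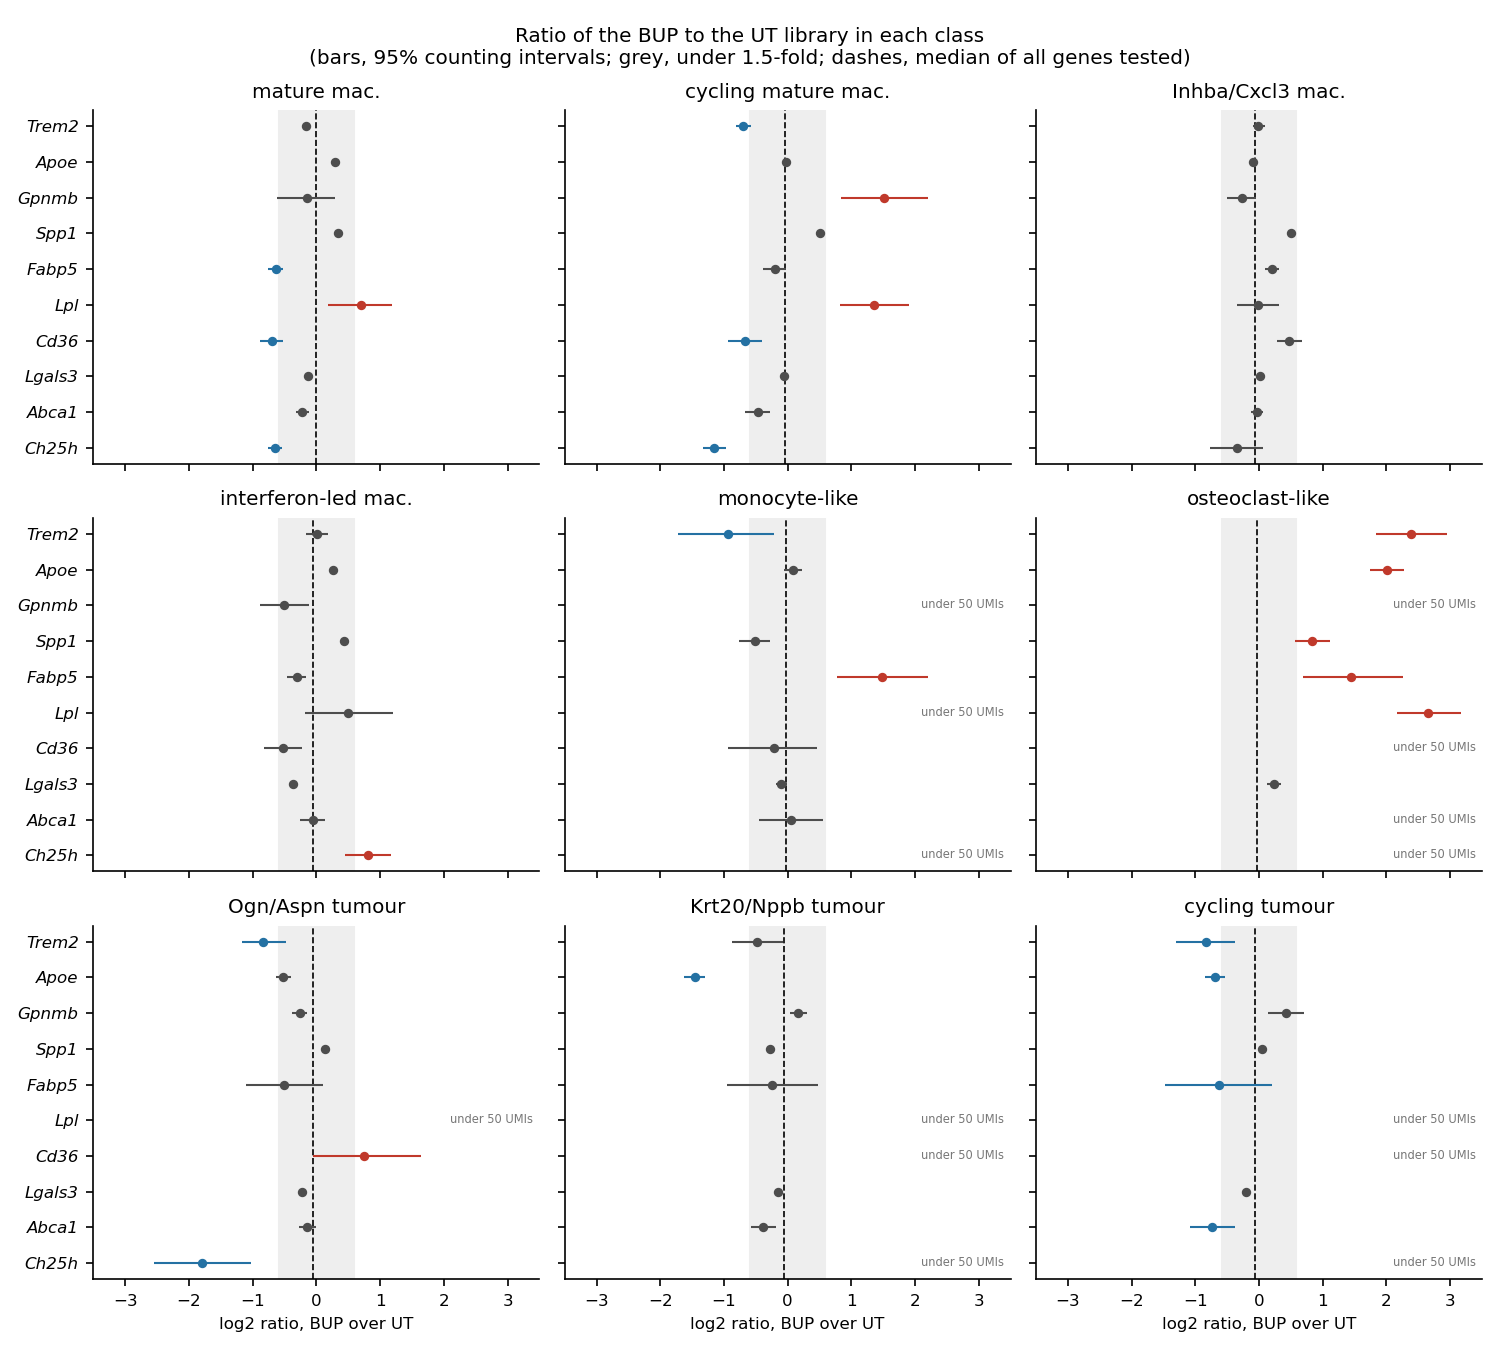
Log2 ratio of BUP over UT for the 10 genes in each class, with exact 95% intervals for counting error and the median of all genes tested as a dashed line. The genes of the Inhba and Cxcl3 macrophages stay under 1.5-fold (grey). Ch25h, Cd36 and Fabp5 (the last in 6 of 11 alternatives) are lower in BUP mature macrophages. Lpl, Trem2 and Apoe are higher in the BUP osteoclast-like cluster, but Apoe reversed at a clustering resolution of 1.0.

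Counted over the list, mature macrophages had 1 of 10 genes higher (Lpl) and 3 lower (Cd36, Ch25h and, in 6 of 11 alternatives, Fabp5) in BUP, where 6.31% of all genes tested were past the fold in either direction, 2.98% higher and 3.33% lower. Each of these calls fell under the fold in at least 1 alternative. The members' median was -0.15 and that of all genes -0.01. In the cycling mature cluster 2 were higher (Gpnmb, Lpl) and 3 lower (Trem2, Cd36, Ch25h), against 5.90% of all genes higher and 6.27% lower (12.2% in all), with medians of -0.13 and -0.04. In Inhba and Cxcl3 macrophages 0 of 10 passed the fold, against 2.21% of all genes higher and 3.21% lower (5.41% in all), with medians of -0.01 and -0.06. In interferon-led macrophages 1 of 10 passed (Ch25h, higher), against 3.21% of all genes higher and 5.68% lower (8.89% in all), with medians of -0.02 and -0.05. In monocyte-like cells 7 genes had at least 50 UMIs, the minimum for a call, of which Fabp5 was higher and Trem2 lower, against 4.46% of all genes higher and 6.79% lower (11.2% in all), with medians of -0.10 and -0.02. Gpnmb, Lpl and Ch25h had too few UMIs there.

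Of the classes described here, the osteoclast-like cluster had the members' median farthest from 0. Of the 6 genes with enough UMIs, 5 were higher in BUP and 0 lower, against 10.6% of all genes higher and 11.1% lower (21.7% in either direction), and the members' median was 1.73 against -0.03 for all genes. The members' median covers these 6 genes alone. The minimum counts UMIs of both libraries, so a gene can pass it through the library where it is high. With no minimum the members' median was lower (value given below). The median was 0.72 at a clustering resolution of 1.0 and 0.33 as a difference of mean log2-normalized expression per cell, a measure under which Trem2 and Lpl fell under the fold. Lpl was at 52.7 and 330 CPM (2.65 [2.16, 3.17]), Trem2 at 45.0 and 233 CPM (2.38 [1.84, 2.95]) and Apoe at 207 and 830 CPM (2.01 [1.75, 2.27]), a ratio that reversed to -0.81 at a clustering resolution of 1.0. Fabp5 had 27.0 and 73.9 CPM (1.45, with 90.2% of the BUP UMIs in 5 cells) and Spp1 236 and 422 CPM (0.83 [0.56, 1.11], reversed to -0.29 with 30 principal components). Lgals3 was the sixth, at 1827 and 2151 CPM (0.24). Gpnmb had 0 UMIs in UT, with an exact upper limit of 4.74 CPM, and 18 UMIs or 26.1 CPM in BUP. Cd36, Abca1 and Ch25h had under 50 UMIs, with 10.3 and 4.35, 18.0 and 24.6, and 5.14 and 5.80 CPM.

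The makeup of this cluster differed between the libraries as well. The summed level of the osteoclast markers was 1626 CPM in UT and 13178 CPM in BUP, with Ctsk, the collagen-degrading cathepsin K, at 469 and 4880 CPM, Acp5 at 491 and 3780 CPM and Mmp9 at 362 and 3425 CPM. The summed cDC2 markers were 1883 and 1075 CPM. The summed neutrophil markers were 145 and 1581 CPM, with 5 of 6 markers found in UT and 6 of 6 in BUP, and their part in the result was not tested. Cells were therefore divided by whether their osteoclast list was above their cDC2 list, a division chosen after the values were seen. It placed 8 of 84 UT and 16 of 63 BUP cells on the osteoclast side (24 of 147 cells), and 40 cells lay near the dividing line. The median depth was 14425 UMIs on the osteoclast side and 7792 UMIs on the other.

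On the osteoclast side Trem2 had 0 UMIs in the 8 UT cells and 133 in the 16 BUP cells, or 460 CPM [385, 546], where the exact upper limit in UT was 31.6 CPM. Apoe was at 120 and 1887 CPM, Lpl at 206 and 782 CPM (24 and 226 UMIs) and Spp1 at 77.2 and 249 CPM. Gpnmb, at 0 and 62.3 CPM, was found on this side alone. Ctsk was at 3131 and 11659 CPM, so the osteoclast markers themselves differed between the cells of the libraries. On the cDC2 side (76 UT and 47 BUP cells) Trem2 was at 52.9 and 69.8 CPM, Apoe at 222 and 69.8 CPM, Lpl at 25.7 and 4.98 CPM and Ctsk at 0 CPM in both. Within BUP, Trem2, Apoe and Lpl were thus higher in the 16 osteoclast-side cells than in the 47 cDC2-side cells. Within UT this held for Lpl but not for Trem2 or Apoe. The source of the difference between the libraries was not tested.

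**Figure D3:**
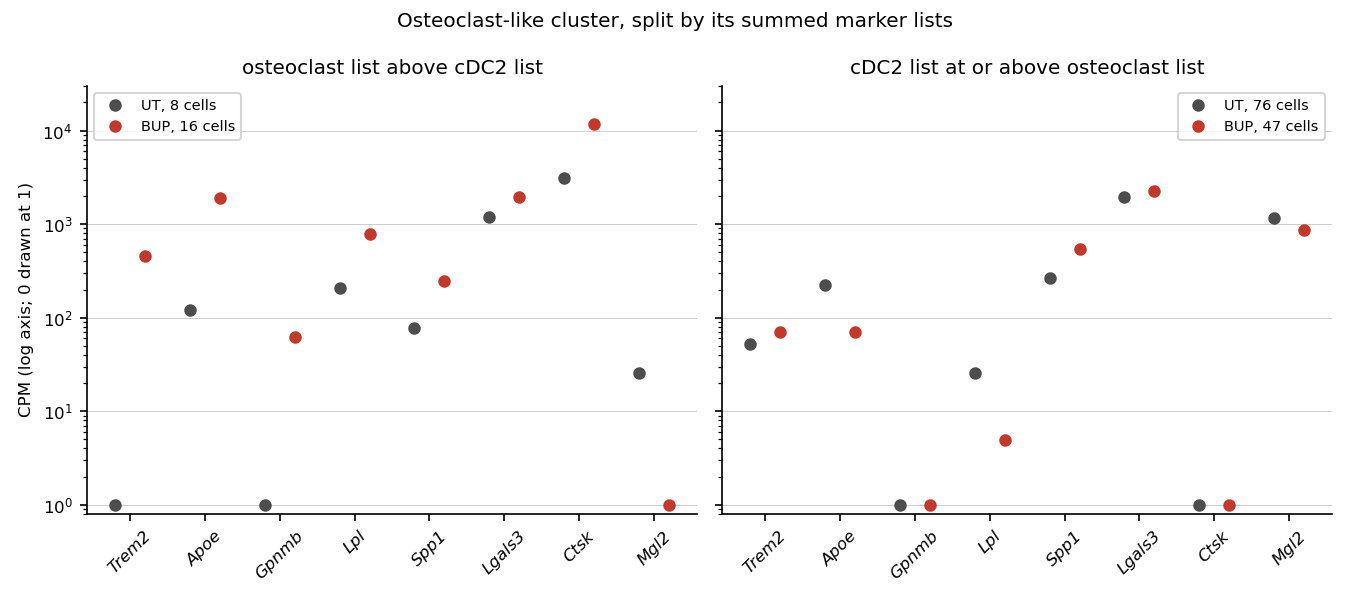
Levels (CPM, log axis, 0 drawn at 1) of 6 of the genes with Ctsk and Mgl2 in the osteoclast-like cluster, divided by its summed marker lists, as 1 point per library without error bars. In the part with the osteoclast list above the cDC2 list, Trem2 is at 0 in 8 UT cells and at 460 CPM in 16 BUP cells, while the other part has 52.9 and 69.8 CPM.

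In tumor cells, the genes fell into a group with levels above those of T and NK cells and a group near or below them. Spp1, Gpnmb, Lgals3 and Abca1 were above, the last at 79.0 and 71.8 CPM in Ogn and Aspn tumor cells and 30.7 and 23.6 CPM in Krt20 and Nppb tumor cells against 10.6 and 10.2 CPM in T and NK cells. The split uses T and NK cells pooled. NK-like cells alone had Lgals3 at 1387 and 1251 CPM, above Ogn and Aspn (1368 and 1166 CPM) and cycling tumor cells (1253 and 1081 CPM). Krt20 and Nppb tumor cells (1613 and 1449 CPM) stayed above them. Trem2 had 14.6 and 8.26 CPM in Ogn and Aspn, 7.78 and 5.57 CPM in Krt20 and Nppb and 16.1 and 9.03 CPM in cycling tumor cells, where T and NK cells had 11.1 and 5.25 CPM. Apoe had 112 and 78.0 CPM, 66.0 and 24.0 CPM, and 126 and 78.2 CPM, where T and NK cells had 129 and 75.7 CPM. Fabp5 (at most 4.88 CPM), Cd36 (2.03 and 3.42 CPM in Ogn and Aspn tumor cells, T and NK cells 3.58 and 2.68 CPM) and Ch25h (4.47 and 1.30 CPM, T and NK cells 2.62 and 1.79 CPM) were as low, and Lpl was at most 1.34 CPM. Values above those of T and NK cells were found for Trem2 in Ogn and Aspn and cycling tumor cells of both libraries. Trem2 was also above in BUP Krt20 and Nppb tumor cells (5.57 against 5.25 CPM). Apoe was above in BUP Ogn and Aspn and BUP cycling tumor cells (78.0 and 78.2 against 75.7 CPM). For Ch25h this held in UT Ogn and Aspn and in BUP cycling tumor cells (2.12 against 1.79 CPM in BUP). Cd36 was above in BUP Ogn and Aspn (3.42 CPM) and UT cycling tumor cells (4.78 CPM). Lpl was above in BUP Ogn and Aspn (1.34 CPM, 31 UMIs) and BUP cycling tumor cells (0.282 CPM), against 0.112 CPM.

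C1q, which macrophages make and tumor cells should lack, gives a measure of background RNA. The summed C1qa, C1qb and C1qc level was 11177 and 11090 CPM in mature macrophages, 213 and 105 CPM in T and NK cells and 201 and 108 CPM in tumor cells. Trem2 over C1q was 0.0446 and 0.0403 in mature macrophages, 0.0521 and 0.05 in T and NK cells and 0.0582 and 0.0678 in tumor cells. For Apoe the quotients were 0.504 and 0.627, 0.604 and 0.720, and 0.465 and 0.528. By tumor cluster the quotients spread more widely. Trem2 over C1q was 0.0737 and 0.0611 in Ogn and Aspn, 0.0780 and 0.163 in Krt20 and Nppb and 0.0404 and 0.0412 in cycling tumor cells, and Apoe over C1q was 0.565 and 0.577, 0.662 and 0.701, and 0.317 and 0.356. In monocyte-like cells Trem2 over C1q was 0.453 and 0.213 and Apoe over C1q 6.87 and 6.55, above the quotient of mature macrophages. Spp1 (46.5 and 76.8), Lgals3 (7.27 and 11.7), Gpnmb (0.303 and 0.661) and Abca1 (0.211 and 0.416) stood above it in tumor cells, where mature macrophages had 0.113 and 0.143, 0.205 and 0.189, 0.00116 and 0.00106, and 0.0238 and 0.0207. T and NK cells also had high quotients for Spp1 (16.7 and 26.2) and Lgals3 (5.02 and 9.39), and lower ones than tumor cells for Gpnmb (0.00560 and 0.0191) and Abca1 (0.0499 and 0.0968). Lpl over C1q was 0.00361 and 0.00656 in tumor cells and 0.000634 and 0.00104 in mature macrophages. The quotients of Cd36 (0.0112 and 0.0171 against 0.0106 and 0.00659) and Fabp5 (0.0184 and 0.0264 against 0.0209 and 0.0135) were higher in tumor cells than in mature macrophages of BUP, with those of T and NK cells at 0.0168 and 0.0255, and 0.269 and 0.466.

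**Figure D4:**
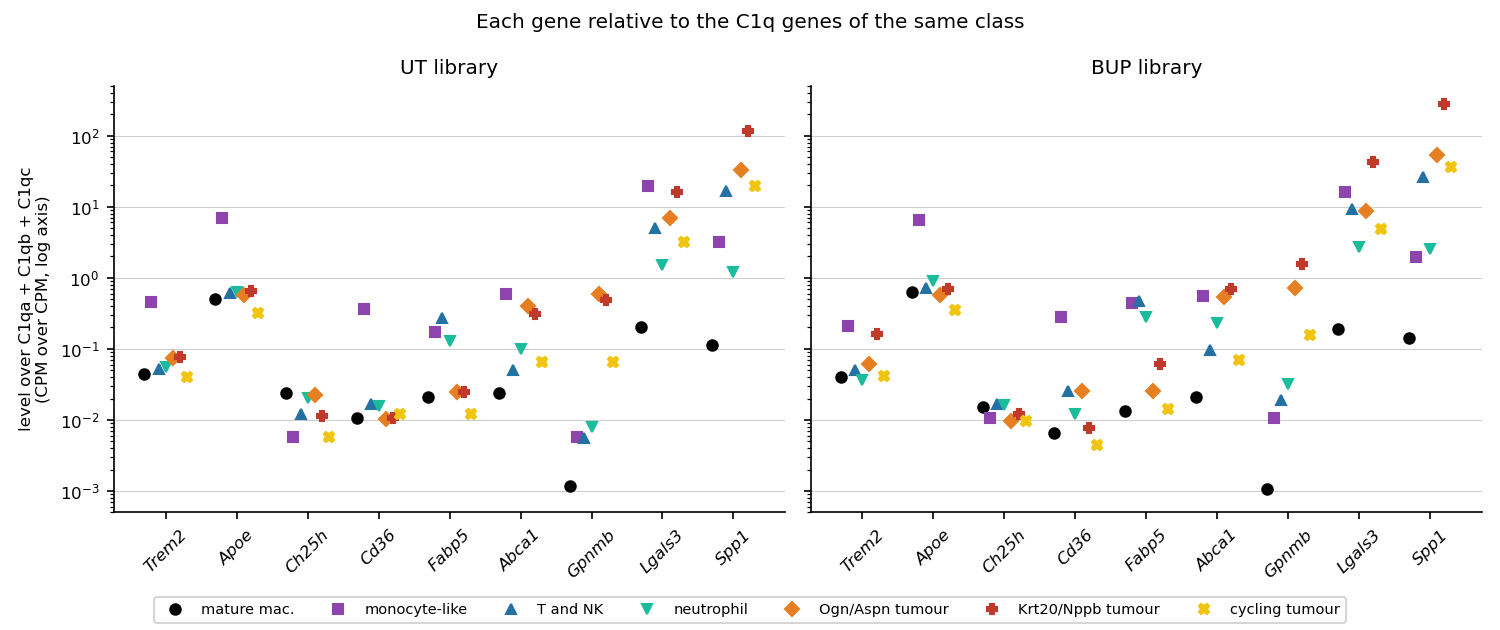
Level of 9 of the genes divided by the summed C1qa, C1qb and C1qc level of the same class (log axis) in the UT and BUP libraries, as 1 point per class without error bars. Trem2 over C1q lies between 0.0403 and 0.163 in mature macrophages, T and NK cells and tumor cells, while Gpnmb over C1q is 0.00116 and 0.00106 in mature macrophages and at least 0.0651 in tumor clusters.

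Between the libraries, 3 of 9 genes tested passed the fold in Ogn and Aspn tumor cells (Trem2 -0.83 and Ch25h -1.79 lower, Cd36 0.75 [-0.06, 1.65] higher), against 3.62% of all genes lower and 1.65% higher (5.27% in all), with medians of -0.26 and -0.06. In Krt20 and Nppb tumor cells it was 1 of 7 (Apoe, -1.46 [-1.62, -1.29]), against 3.07% of all genes lower and 1.37% higher (4.44% in all), with medians of -0.27 and -0.06. In cycling tumor cells 4 of 7 were lower (Trem2 -0.83, Apoe -0.69, Abca1 -0.74 [-1.09, -0.38] and Fabp5 -0.62 [-1.47, 0.20]), against 3.74% of all genes lower and 1.64% higher (5.39% in all), with medians of -0.62 and -0.06. Over the 3 clusters summed, 0 of 10 were higher and 3 lower (Trem2, Apoe and Ch25h), against 2.67% of all genes higher and 5.16% lower (7.83% in all). The C1q sum differed in the same clusters by -0.56, -1.54 and -0.86, and in T and NK cells by -1.02. The lower Trem2, Apoe and Ch25h of BUP tumor clusters thus lay beside lower C1q, and the part of background RNA in them was not tested. Of the genes above the T and NK cell level there, Spp1, Gpnmb and Lgals3 stayed under 1.5-fold in all 3 tumor clusters (log2 ratios from -0.27 to 0.43). Abca1, also above that level, was lower in BUP cycling tumor cells (-0.74) and under the fold in the other tumor clusters.

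Over cells thinned to 2000 UMIs, the number of the 10 genes detected had a median of 4.00 in mature macrophages of both libraries, with 3 or more in 90.8% of UT and 85.5% of BUP cells and 5 or more in 32.9% and 22.9%. In Inhba and Cxcl3 macrophages the median was 3.00 in both, with 3 or more in 69.6% and 69.7% and 5 or more in 11.8% and 12.7%. Monocyte-like cells had a median of 2, with 3 or more in 27.2% and 23.9% and 5 or more in 0.971% and 0%. Ogn and Aspn tumor cells also had a median of 2, with 3 or more in 35.0% and 26.5%. Lgals3 and Spp1, which T and NK cells also had, add to these counts. These counts leave out 19 and 7 Inhba and Cxcl3 macrophages, 34 and 17 monocyte-like cells and 4 and 3 cells of the osteoclast-like cluster with fewer UMIs.

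Gpnmb and Fabp5 were the pair with the largest correlation over thinned cells. In Inhba and Cxcl3 macrophages r was 0.35 in UT (1256 cells) and 0.37 in BUP (796 cells). Fabp5 was found in 64.9% [47.5, 79.8] of the 37 UT cells with a Gpnmb UMI and in 10.7% [8.99, 12.5] of the 1219 without. The BUP shares were 56.0% [34.9, 75.6] of 25 cells and 9.73% [7.73, 12] of 771 cells, so the intervals (exact binomial) did not overlap in either library. Fabp5 and Lgals3 had r of 0.16 and 0.23 in the same cluster. Gpnmb, scarce in this cluster, was thus concentrated in cells that also had the fatty acid carrier.

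Other pairs were weaker. In interferon-led macrophages Trem2 and Apoe had r of 0.22 and 0.28, with Apoe in 74.7% of UT and 78.6% of BUP cells with Trem2 against 60.9% and 60.9% of those without. In mature macrophages Apoe and Ch25h had r of -0.23 and -0.17, with Ch25h in 24.9% and 18.5% of cells with Apoe against 40.6% and 27.3% of those without. In the cycling mature cluster Apoe and Spp1 had r of -0.18 and -0.27. These 5 were the pairs with r past 0.15 in size and of 1 sign in both libraries. They stood among 28 pairs in each of the mature and the Inhba and Cxcl3 clusters, 21 in the interferon-led and 15 in the cycling mature cluster. None met this limit among 10 pairs in Ogn and Aspn, 6 in Krt20 and Nppb and 1 in cycling tumor cells, or for 1 pair in monocyte-like cells. The cells of a cluster share a library, and these correlations are descriptions without a test.

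**Figure D5:**
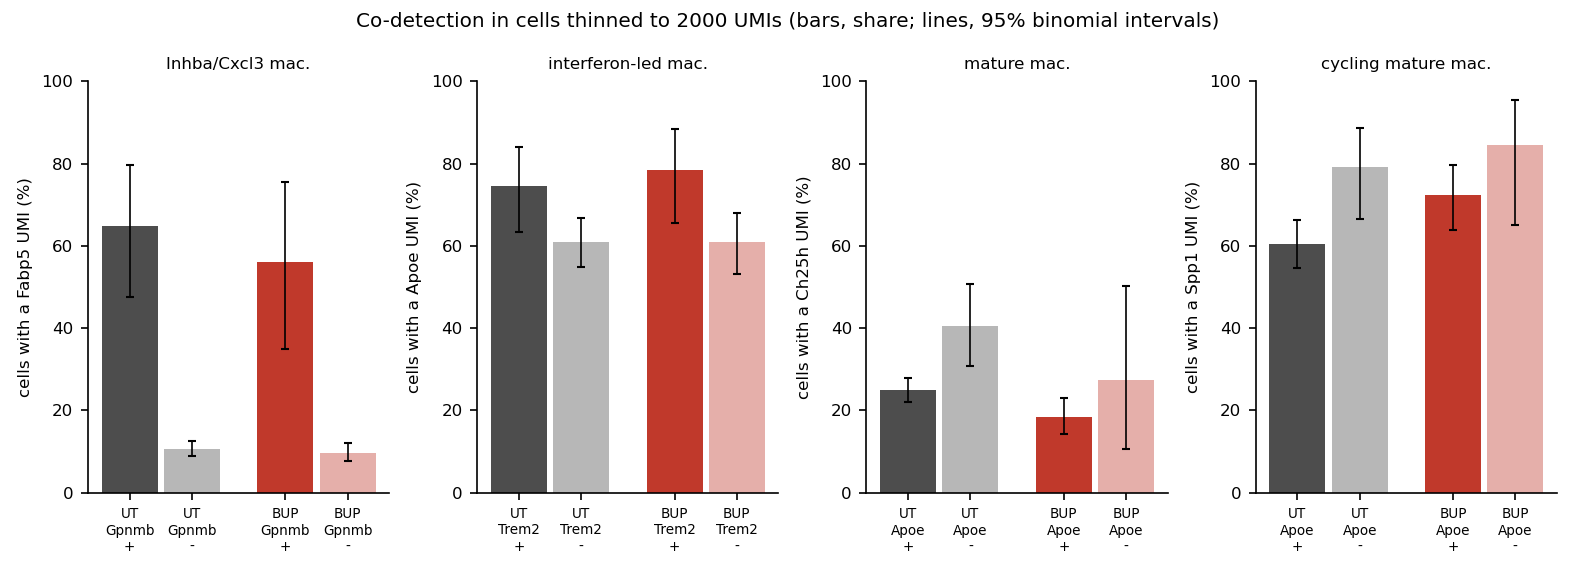
Percent of thinned cells (2000 UMIs each) with a UMI of the second gene of a pair, among cells with (+) and without (-) a UMI of the first, in each library, with exact binomial 95% intervals. Fabp5 is found in 64.9% and 56.0% of Inhba and Cxcl3 macrophages with Gpnmb and in 10.7% and 9.73% of those without.

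Genes of the same processes were read from 6 lists of 78 genes in all. In mature macrophages, where 2.98% of all genes were higher and 3.33% lower, none of the 6 TREM2 signaling genes passed the fold, and of 15 lysosome and lipid-associated macrophage genes Ctsl, the protease cathepsin L, was the 1 that did (2689 and 1719 CPM, -0.65, lower). Of 13 genes tested for lipid uptake and storage 0 passed, with the lipid droplet coat gene Plin2 at 317 and 346 CPM. Nr1h3, which encodes the oxysterol-sensing factor LXR alpha, was the 1 of 13 LXR and PPAR factors and targets past the fold (8.27 and 14.5 CPM, 0.81 [0.35, 1.26], higher), while the LXR target Abcg1 had 54.4 and 50.7 CPM. Of the 16 sterol synthesis genes Lss was higher (5.17 and 8.53 CPM, 0.72), with a median of 0.17 over the list. The receptors and enzymes that act on osteopontin, galectin-3 and oxysterols had 0 of 9 past the fold.

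In Inhba and Cxcl3 macrophages the TREM2 signaling, lysosome, uptake, LXR and partner lists had 0 genes past the fold. Sterol synthesis had 2 of 16 lower, against 3.21% of all genes in this class, Hmgcs1 (27.9 and 17.5 CPM, -0.67) and Sqle (21.5 and 11.8 CPM, -0.86), with a median of -0.43. In interferon-led macrophages, where 5.68% of all genes were lower, 2 of 14 sterol synthesis genes were lower, and 1 of 9 partners, the galectin ligand Lgals3bp, was lower (189 and 115 CPM, -0.72).

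In the osteoclast-like cluster, where 10.6% of all genes were higher and 11.1% lower, 6 of 12 lysosome genes tested were higher in BUP, among them Cd63 (144 and 619 CPM, 2.10), Hexa (114 and 307 CPM, 1.43), Ctsl (1.02) and Npc2, which exports cholesterol from lysosomes (0.92), and the list's median was 0.56. The osteoclast, cDC2 and neutrophil markers given above differed in the same cluster, with 8 UT and 16 BUP cells on the osteoclast side, and their part in the lists was not tested. Of 10 uptake and storage genes 2 were higher, Plin2 (62.9 and 119 CPM, 0.92) and Hilpda (122 and 225 CPM, 0.88). Of 7 partner genes 2 were higher, Itgav, the alpha chain of an osteopontin receptor (71.9 and 249 CPM, 1.79), and Hsd3b7, which acts on oxysterols (61.7 and 135 CPM, 1.13 [0.61, 1.66]). Of 6 LXR and PPAR factors and targets Lpcat3 was higher (24.4 and 44.9 CPM, 0.88 [0.01, 1.79]) and Scd2 (-0.75 [-1.29, -0.22]) and Ppard (-0.66 [-1.58, 0.22]) lower. Sterol synthesis had 4 of 10 genes lower, among them Fdft1 at -1.41 and Idi1 at -1.38. Of the 6 TREM2 signaling genes Plcg2 was the 1 past the fold, lower (110 and 60.9 CPM, -0.86).

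In the Ogn and Aspn, Krt20 and Nppb and cycling tumor clusters, 1.65%, 1.37% and 1.64% of all genes were higher and 3.62%, 3.07% and 3.74% lower. Lipid uptake and storage had 1 of 15 genes higher and 1 lower in Ogn and Aspn, 2 of 15 higher and 1 lower in Krt20 and Nppb and 1 of 13 higher in cycling tumor cells. Angptl4, an inhibitor of lipoprotein lipase, was the gene higher in each of the 3 clusters, at 19.4 and 32.1 CPM (0.73), 27.1 and 40.8 CPM (0.59) and 13.2 and 25.7 CPM (0.96). Fabp4, a fatty acid carrier like Fabp5, was the other in Krt20 and Nppb tumor cells (1.20 and 4.48 CPM, 1.90 [1.12, 2.77]), where the scavenger receptor gene Msr1 was lower (11.9 and 5.42 CPM, -1.14). The TREM2 signaling list had 2 of 6, 2 of 5 and 1 of 6 genes lower in the 3 clusters and 0 higher, among them Tyrobp in cycling tumor cells (99.1 and 60.7 CPM, -0.71). The macrophage genes of C1q differed in these clusters by -0.56, -1.54 and -0.86, and their part in the lists was not tested. Of 15 lysosome genes 1 was lower in each cluster and 1 higher in Ogn and Aspn tumor cells. LXR and PPAR factors and targets had 0 of 11, 1 of 10 and 1 of 9 lower, the partner list 0, 1 and 0 of 8, and sterol synthesis 0 of 15 in each cluster.

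The pattern of each gene was also set beside those of 8267 genes over 48 points, the 24 clusters in the 2 libraries, which share library and depth. Trem2 was most like Clec4a1 (Pearson r 0.88 on log2(CPM + 1)), Grn (0.87) and Mmp12 (0.86), and Apoe like Fcgr2b (0.93), Ctsc (0.91) and Lyz2 (0.90). Cd36 was nearest to Adgre1 (0.87), which encodes the macrophage antigen F4/80, to Gm56663 (0.84) and to Lyz2 (0.84), and Abca1 to Zeb2 (0.86), Apobec1 (0.84) and Rab31 (0.84). Ch25h was nearest to Sash1 (0.80), C1qc (0.78) and Pdlim4 (0.77). These 5 are the genes that were highest in mature macrophages among the 9 classes described above. Fabp5 stood with Bcl2a1b (0.88), Adam8 (0.87) and Rab8b (0.86), and Lgals3 with Rnh1 (0.91) and the glycolytic genes Pkm (0.85) and Pgam1 (0.84). Lpl stood with the osteoclast gene Ctsk (0.81), Cxcl14 (0.80) and Fzd1 (0.80). Gpnmb was nearest to C1ra (0.83), Mthfd2l (0.82) and Rgl1 (0.82), and Spp1 to Tmem119 (0.84), Sccpdh (0.83) and Asns (0.78).

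Among the members themselves, r ran from -0.27 for Spp1 and Fabp5 to 0.73 for Trem2 and Apoe. Trem2 and Cd36 had 0.71, Apoe and Cd36 0.69 and Gpnmb and Spp1 0.60, while Trem2 and Spp1 had -0.02. The 10 genes thus fell along the macrophage and tumor cell classes and not along 1 shared pattern.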

How the data were processed

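CT26 tumors of UT and BUP-Gel mice were measured by 10x Genomics 5' single-cell RNA sequencing, with 1 library per group. The deposited matrices hold UMI counts per gene and cell, which the authors made with Cell Ranger on GRCm39 (8.0.1 in the submitters' processing notes; the methods give another version). The labels give a 4:1 mix of CD45+ and CD45- cells and the methods 3:1. Columns of no known sample numbered 0. The 10 genes, the lists and the marker genes were chosen with earlier results of these data known.

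Cells with over 100 UMIs and under 20% mitochondrial UMIs were kept, 13939 of 14777 barcodes, the number of cells the study states. Clustering used Seurat 5.3.0 (R 4.3.3), log-normalization, 2000 variable genes without 95 genes (members, lists and genes compared earlier), 20 principal components and resolution 0.5, without integration, and the 18 immune clusters came from a second round. Clusters were named from marker lists, and the authors' cell labels were not used here, so differences from the study can come from the rebuilt names. UMIs were summed per class and library, divided by the class total and multiplied to CPM (Python 3.11.15, numpy 2.4.6, scipy 1.17.1, pandas 2.3.3). Calls needed 1.5-fold and at least 50 UMIs over both libraries. No p-values were computed. Scrublet in scanpy 1.11.5 marked 0.0279% of UT and 2.33% of BUP cells and was not used to remove cells in the values reported. The text names all 10 genes, the 3 genes nearest to each in pattern, and list genes past the fold with an interval without 0, at most 4 per list and class, with Plin2 and Abcg1 in mature macrophages and Tyrobp added as references after their values were seen. Some list genes are not reported here.

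On simulated counts of the mature class (10448 genes, 200 changed), 96.9% of the genes changed by 1 log2 unit were called, and 1.97% of unchanged genes. For the osteoclast-like class (4129 genes) the shares were 92.0% and 4.51%. The counts were Poisson draws with changes of 1 or 2 log2 units, past the fold for a call, and without spread between cells, tumors or mice. The shares thus cover counting error only and are not error rates for a difference between groups. Alternatives covered the cell filter, resolution, principal components, variable genes, scaling, thinning to 2000 UMIs, doublet scores and the UMI minimum.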

Additional observations from a re-analysis of the deposited data

Results flagged for a closer look

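For 4 genes the difference between the libraries ran in opposite directions in different cell classes, each past 1.5-fold with a counting interval that leaves out 0, with 1 library per group, so that the differences between classes were not tested. Trem2 was higher in BUP in the osteoclast-like cluster (log2 ratio 2.38) and lower in the cycling mature macrophages (-0.70), monocyte-like cells (-0.93, but 0.29 in thinned cells), Ogn and Aspn tumor cells (-0.83) and cycling tumor cells (-0.83). Apoe was higher in the osteoclast-like cluster (2.01, but -0.81 at a clustering resolution of 1.0) and lower in Krt20 and Nppb tumor cells (-1.46) and cycling tumor cells (-0.69). The summed C1q genes differed in the classes with lower values, by -0.56 in cycling mature macrophages and in Ogn and Aspn tumor cells, -1.54 in Krt20 and Nppb tumor cells and -0.86 in cycling tumor cells, but by 0.16 in monocyte-like cells. The osteoclast markers moved with the higher values, from 1626 to 13178 CPM. The part of these genes was not tested.

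Fabp5 was higher in BUP monocyte-like cells (1.48) and in the osteoclast-like cluster (1.45) and lower in mature macrophages (-0.64). In the first pair of classes 78.0% and 90.2% of the BUP UMIs came from 5 cells. Cd36, lower in mature (-0.70) and cycling mature macrophages (-0.67), was also past the fold upward in Ogn and Aspn tumor cells, but there the interval holds 0 (0.75 [-0.06, 1.65]). Ch25h was higher in interferon-led macrophages (0.81, but -0.09 at resolution 1.0) and lower in mature macrophages (-0.65), cycling mature macrophages (-1.15) and Ogn and Aspn tumor cells (-1.79).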

How the results depend on the processing

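Medians over the 10 genes stayed between -0.23 and -0.11 in mature and between -0.08 and 0.06 in Inhba and Cxcl3 macrophages under every alternative run, and between -0.14 and 0.22 in monocyte-like cells. The interferon-led median of -0.02 became -0.23 at resolution 1.0 and -0.30 with the genes kept among the variable genes. The osteoclast-like median of 1.73 became 0.72 at resolution 1.0, 0.33 as a difference of mean log2-normalized expression per cell and 1.14 with no minimum on UMIs. The tumor median of -0.25 became -0.01 on mean log2-normalized expression, and -0.62 in the cycling tumor cluster alone. Ch25h in interferon-led macrophages turned from 0.81 to -0.09 and Apoe in the osteoclast-like cluster from 2.01 to -0.81 at resolution 1.0, Spp1 in the osteoclast-like cluster from 0.83 to -0.29 with 30 principal components, and Trem2 in monocyte-like cells from -0.93 to 0.29 with thinned cells. The cause was not tested. Of 53 values of a gene in a class, 15 were called, and 11 of these kept their sign in every alternative, but each of the 15 fell under 1.5-fold in at least 1. For 7 of them, Ch25h in mature macrophages and Trem2 and Lpl in the osteoclast-like cluster included, that was mean log2-normalized expression alone. Fabp5 in mature macrophages passed the fold in 6 of 11 alternatives and Cd36 in 9 of 11.

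With 1 library per group no replicate could be left out, and differences between mice, tumors or runs cannot be told apart from the treatment. No paired analysis was possible because each group has 1 library. The osteoclast-like cluster holds 84 and 63 cells, and values resting on few cells are limited by depth. Alternatives by neutrophil markers (0.10 in interferon-led macrophages), by the osteoclast list (1.81), with the cycling mature cluster and by tumor cluster were chosen after seeing the data.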

Other observations

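Several of the genes were also high outside the classes of the report. Spp1 reached 5567 CPM in UT against 13115 CPM in BUP fibroblast-like cells. Fabp5 was highest of all in migratory dendritic-like cells, the cells that carry antigen to lymph nodes, at 1268 and 685 CPM. Lpl was at 158 and 181 CPM in fibroblast-like cells, and Ch25h there at 54.9 and 135 CPM. Cd36 reached 93.0 and 88.2 CPM in type 1 conventional dendritic-like cells, between its levels in mature and Inhba and Cxcl3 macrophages in UT and above both in BUP.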
